A study of Homo sapiens with 54 samples.

Results

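ZNF750, ZFHX3, BTBD9, NFIC and NOL4L are 5 of the 25435 genes measured by RNA sequencing in 3 pairs of high-grade serous ovarian cancer cell lines treated with carboplatin, which damages DNA by platinating it. They were found by symbol in the table of expression values, and they had been chosen by those values: each was lower in treated than in untreated libraries of all 6 lines at 8 h or at 24 h. That difference is therefore a description of how they were selected and not a finding. Each pair comes from 1 patient and joins a line labelled platinum resistant with one labelled platinum sensitive: PEA2 with PEA1, PEO4 with PEO1, and PEO23 with PEO14. For each line there were cultures after 8 h and after 24 h in 80 µM carboplatin and cultures without drug, called untreated, with 3 replicates per group, which gave 54 libraries in 18 groups. All groups were grown in RPMI1640 medium with 10% fetal bovine serum for 48 h before treatment. The series text gives the dose in mM and describes the controls as vehicle cultures harvested at 24 h, whereas the labels give µM and a time of 0. Each line is a single established line, so resistance rests on 1 line per pair. In PEA1, PEA2, PEO1 and PEO4 the culture codes in the labels, read as passage numbers, are higher for every treated culture than for any untreated one, so passage and treatment cannot be told apart there. The codes of PEA1 also lie far above those of PEA2, so passage and resistance cannot be told apart in that pair.

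The 5 genes have different known roles. ZNF750 is a zinc finger transcription factor that acts below the master regulator p63 in the terminal differentiation of stratified epithelium, where it raises KLF4 and works with the chromatin cofactors KDM1A, RCOR1, CTBP1 and CTBP2. ZFHX3, also called ATBF1, is a very large transcription factor with many zinc fingers and homeodomains, which represses AFP and MYB and is lost by mutation in several carcinomas. NFIC belongs to the nuclear factor I family, with NFIA, NFIB and NFIX, whose members bind DNA as dimers at the half-site TTGGC and its mirror. BTBD9 is a BTB domain protein, a class that often serves as substrate adaptor of CUL3 ubiquitin ligases, and the gene has been tied to restless legs syndrome and iron handling. NOL4L is a paralogue of the nucleolar protein gene NOL4, best known as a fusion partner in leukaemia, and its own function is little known.

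RefSeq promoters of build GRCh38.p14, from 250 bases before the annotated start to 50 bases after it, were at hand for 4 of the 5 genes and are shown because the 4 genes were lower together in treated cells. ZNF750 is named only. For a gene with several starts the one with most CpG dinucleotides is shown. The sequences run 5′ to 3′ on the strand of the gene, and capitals mark the GC box, GGGCGG or its reverse complement CCGCCC.
ZFHX3, chr16:73048079-73048378, minus strand: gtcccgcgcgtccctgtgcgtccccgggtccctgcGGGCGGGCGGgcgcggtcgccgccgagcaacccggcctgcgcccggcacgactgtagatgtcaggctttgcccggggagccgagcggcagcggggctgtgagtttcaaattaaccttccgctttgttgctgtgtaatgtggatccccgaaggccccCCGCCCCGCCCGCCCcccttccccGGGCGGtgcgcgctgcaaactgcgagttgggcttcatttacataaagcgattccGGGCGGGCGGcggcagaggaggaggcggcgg
BTBD9, chr6:38639880-38640179, minus strand: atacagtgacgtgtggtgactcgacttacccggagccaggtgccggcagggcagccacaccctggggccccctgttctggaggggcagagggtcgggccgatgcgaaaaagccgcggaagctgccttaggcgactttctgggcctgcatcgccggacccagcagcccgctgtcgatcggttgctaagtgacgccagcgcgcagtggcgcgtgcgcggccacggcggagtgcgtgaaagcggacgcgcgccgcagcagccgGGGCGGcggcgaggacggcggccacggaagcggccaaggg
NFIC, chr19:3359380-3359679, plus strand: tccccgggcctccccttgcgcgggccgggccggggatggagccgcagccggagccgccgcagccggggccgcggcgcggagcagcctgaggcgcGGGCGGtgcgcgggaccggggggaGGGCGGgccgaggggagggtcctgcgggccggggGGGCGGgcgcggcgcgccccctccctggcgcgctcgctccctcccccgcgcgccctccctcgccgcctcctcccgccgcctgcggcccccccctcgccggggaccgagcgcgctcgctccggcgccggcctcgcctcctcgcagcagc
NOL4L, chr20:32585284-32585583, minus strand: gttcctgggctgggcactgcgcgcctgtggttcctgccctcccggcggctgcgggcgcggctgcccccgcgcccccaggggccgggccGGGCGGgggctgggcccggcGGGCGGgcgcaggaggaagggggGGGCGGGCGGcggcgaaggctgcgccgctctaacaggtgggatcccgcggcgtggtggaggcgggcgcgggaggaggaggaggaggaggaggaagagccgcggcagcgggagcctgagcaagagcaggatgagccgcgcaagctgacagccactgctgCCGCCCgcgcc

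The windows shown hold 51 CpG dinucleotides in NFIC, 38 in ZFHX3, 38 in BTBD9 and 36 in NOL4L, and outside NFIC, which has a single start, the choice of window favours high counts. The other starts of ZFHX3 have 5, 2 and 8, that of BTBD9 has 1 and that of NOL4L has 33. In the windows shown the GC box occurs 8 times in ZFHX3, 5 times in NOL4L, 3 times in NFIC and in a single copy in BTBD9, overlapping matches included. The other starts of ZFHX3 and BTBD9 hold none and that of NOL4L holds 5, and 45% of all promoters hold it on either strand. Neither CCAAT (34.6% of promoters) nor TATAAA (11.5%) is in these windows on either strand. The NFI half-site TTGGC, which shares the letters TTGG with CCAAT read on the other strand, is in 45.6% of promoters and in BTBD9 alone of the 4 windows. The motif CCNNAGGC, to which ZNF750 binds, is in 27.5% of promoters and in all 4 windows. The other starts of ZFHX3, BTBD9 and NOL4L hold no match to it, and the windows shown were picked for their CpG counts. These matches, like the GC boxes, are letters in the windows chosen and describe no binding.

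Values are in TPM, which express each gene per unit of length as a share of its library, rescaled between libraries by a median ratio, and given in the order of replicates 1 to 3. TPM keeps no read depth, so the depth of a library is unknown and no counting error could be given. The libraries listed 2678 to 17133 genes above 0. In 12 of them fewer than 12000 genes were listed: all 3 untreated PEO23 libraries, untreated PEA1 replicates 2 and 3, replicate 2 of PEA2, replicate 3 of PEO4 and replicate 3 of PEO1 at 8 h, and replicates 1 and 3 of PEO4 and replicates 2 and 3 of PEO14 at 24 h. The other 42 are called the kept libraries. They were rescaled anew for their own fit, whereas TPM are printed on the scaling of all 54 libraries unless they are said to be rescaled within the kept ones, so that log2 changes in kept libraries need not match the other TPM exactly. Over 1000 genes, 50 of 54 libraries were most alike their own line, and the 4 exceptions were untreated libraries among these 12, namely the 3 from PEO23 and replicate 3 from PEA1. The 8 ovarian and epithelial markers summed to a median of 3516 TPM in treated and 5146 TPM in untreated kept libraries. KRT7, KRT8 and KRT18 had the highest medians, at 926, 800 and 1740 TPM. These 3, PAX8 and EPCAM were above 0 in all 42. MUC16 (median 1.17 TPM) was at 0 in 6 of the 42, and WT1 (2.45 TPM) and CDH1 (37.4 TPM) in 3 each. Composition differed with treatment. In the median kept library, mRNAs of ribosomal proteins made up 19.8% of TPM after treatment and 12.2% without drug. Olfactory receptor genes, silent in most tissues, numbered 10 above 0 in the median treated and 28 in the median untreated kept library. Fibroblast markers summed to 0 to 33.9 TPM in treated and 2.38 to 104 TPM in untreated kept libraries, leukocyte markers to 2.33 to 62.8 and 11.6 to 141 TPM, and endothelial markers to 0 to 196 and 2.55 to 282 TPM. The T cell marker CD3E and the B cell marker MS4A1 were at 0 in all 42. The part of these differences in the results below was not tested.

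ZNF750 had the widest gap. Over all lines it stood at 0 to 18.5 TPM in treated libraries, with a median of 0.598, and at 6.18 to 301 TPM in untreated libraries, with a median of 34.5. It was listed at 0 in 9 of the 36 treated libraries and in none of the 18 untreated ones. In PEA2, ZNF750 had 20.3, 16.8 and 29.3 TPM untreated, 0.228, 0 and 0.133 TPM at 8 h, and 0.16, 0.173 and 0.728 TPM at 24 h. In PEA1, ZNF750 had 37.2, 27.7 and 6.21 TPM untreated, 0, 0.745 and 0 TPM at 8 h, and 0.671, 0.127 and 0.302 TPM at 24 h. In PEO4, ZNF750 had 89.9, 45.2 and 173 TPM untreated, 0.747, 3.7 and 18.5 TPM at 8 h, and 9.6, 7.31 and 6.93 TPM at 24 h. The treated libraries of the PEA lines were all under 1 TPM, whereas those of PEO4 reached 18.5 TPM, still below its lowest untreated library. In PEO1, ZNF750 had 42.8, 39.7 and 58 TPM untreated, 0, 0.589 and 0 TPM at 8 h, and 0.666, 1.15 and 0.172 TPM at 24 h. In PEO23, ZNF750 had 6.18, 124 and 301 TPM untreated, 1.28, 2.69 and 0.757 TPM at 8 h, and 4.88, 0.516 and 0 TPM at 24 h. In PEO14, ZNF750 had 26, 21.3 and 31.9 TPM untreated, 0.64, 0.608 and 0.631 TPM at 8 h, and 0, 0 and 0 TPM at 24 h. Treated and untreated libraries did not overlap in any line. Here and for the genes below, such a lack of overlap describes the selection. The share of all genes without overlap was not determined. The untreated PEO23 values spread widely, and these libraries are among those with few genes. Changes were taken as differences of log2(rescaled TPM + 1), where low genes appear to change less than they do. At 8 h the change was -4.34, -4.05, -4.05, -5.34, -4.72 and -4.06 in PEA2, PEA1, PEO4, PEO1, PEO23 and PEO14 (SE 0.80). The same changes at 24 h were -4.08, -3.89, -3.34, -4.87, -4.96 and -4.76, where PEO14 was listed at 0 in all 3 libraries, so that its change depends on the pseudocount.

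ZFHX3 varied least among untreated libraries. It stood at 0.565 to 11.6 TPM in treated libraries, with a median of 2.37, and at 10.5 to 35.9 TPM in untreated ones, with a median of 22.3. In PEA2, ZFHX3 had 24.7, 27.3 and 27.2 TPM untreated, 4.06, 2.95 and 3.63 TPM at 8 h, and 3.83, 3.26 and 4.69 TPM at 24 h. In PEA1, ZFHX3 had 20, 32.5 and 24 TPM untreated, 2.49, 2.69 and 1.99 TPM at 8 h, and 2.79, 1.71 and 3.35 TPM at 24 h. In PEO4, ZFHX3 had 20.6, 29.8 and 15.5 TPM untreated, 1.67, 1.44 and 11.6 TPM at 8 h, and 4.91, 1.96 and 2.67 TPM at 24 h. The treated value of 11.6 TPM in PEO4 came from 1 of the libraries with few genes, and the other treated libraries of these lines were under 5 TPM. In PEO1, ZFHX3 had 24.2, 26.7 and 15.3 TPM untreated, 0.565, 1.53 and 11.2 TPM at 8 h, and 1.11, 1.44 and 1.32 TPM at 24 h. In PEO23, ZFHX3 had 14.9, 35.9 and 10.5 TPM untreated, 2.73, 2.24 and 1.49 TPM at 8 h, and 1.89, 1.61 and 4.25 TPM at 24 h. In PEO14, ZFHX3 had 18.8, 20.5 and 16.7 TPM untreated, 1.46, 1.88 and 1.76 TPM at 8 h, and 1.02, 5.02 and 6 TPM at 24 h. Again no line overlapped, and the high treated values of PEO1 at 8 h and PEO14 at 24 h belong to libraries with few genes. Among kept libraries the ranges were 0.565 to 4.69 TPM treated and 15.3 to 29.8 TPM untreated. The log2 change at 8 h was -2.60, -2.94, -2.35, -2.63, -2.60 and -2.87 in the same order of lines and at 24 h -2.48, -2.87, -2.47, -3.30, -2.47 and -2.16 (SE 0.60). Genes on the opposite strand, among them the lincRNA LINC01568, overlap the span of ZFHX3, and no source used here states how strand was handled in counting, so reads may be mixed. Without the libraries with few genes the 8 h change in PEO4 was -3.61 and that in PEO1 -3.72.

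BTBD9 was the least abundant of the 5 in untreated cells. It stood at 0 to 11.8 TPM in treated libraries, with a median of 1.07, and at 6.12 to 50.3 TPM in untreated ones, with a median of 12.8. In PEA2, BTBD9 had 6.12, 7.74 and 13.4 TPM untreated, 0.744, 0 and 0.91 TPM at 8 h, and 0.176, 0.442 and 0.666 TPM at 24 h. In PEA1, BTBD9 had 12.7, 22.3 and 6.85 TPM untreated, 1.16, 1.52 and 1.11 TPM at 8 h, and 1.32, 1.11 and 1.46 TPM at 24 h. In PEO4, BTBD9 had 21.5, 30.1 and 50.3 TPM untreated, 3.63, 4.12 and 11.8 TPM at 8 h, and 9.37, 2.07 and 7.62 TPM at 24 h. After treatment every PEO4 library held more BTBD9 than any library of the PEA lines. Without drug PEO4 and PEA1 overlapped, at 21.5 TPM against 22.3 TPM. The difference between these lines was not tested. In PEO1, BTBD9 had 7.69, 9.99 and 9.1 TPM untreated, 0.591, 1 and 1.94 TPM at 8 h, and 0.74, 0.309 and 0.372 TPM at 24 h. In PEO23, BTBD9 had 7.37, 34.2 and 15.8 TPM untreated, 2.29, 2.5 and 0.838 TPM at 8 h, and 1.03, 1.5 and 1.6 TPM at 24 h. In PEO14, BTBD9 had 9.54, 12.8 and 15.1 TPM untreated, 2.06, 1.01 and 0.764 TPM at 8 h, and 0.864, 0 and 0 TPM at 24 h. No line overlapped between treated and untreated libraries, and the 3 libraries listed at 0 had few genes. The log2 change at 8 h was -2.69, -2.59, -2.29, -2.23, -2.62 and -2.59 in PEA2, PEA1, PEO4, PEO1, PEO23 and PEO14, and at 24 h -2.77, -2.56, -2.34, -2.76, -2.85 and -3.43 (SE 0.53). The antisense gene BTBD9-AS1 lies within its span, so reads of the 2 genes may be mixed for the same reason.

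NFIC stood at 0 to 8.4 TPM in treated libraries, with a median of 1.81, and at 0 to 105 TPM in untreated ones, with a median of 25.8. In PEA2, NFIC had 29.8, 35 and 23.3 TPM untreated, 8.4, 0 and 5.62 TPM at 8 h, and 6.81, 8.28 and 6.55 TPM at 24 h. In PEA1, NFIC had 26.2, 105 and 40.2 TPM untreated, 2.24, 2.37 and 2.72 TPM at 8 h, and 2.48, 1.71 and 2.85 TPM at 24 h. In PEO4, NFIC had 18.4, 47.5 and 15 TPM untreated, 1.06, 1.49 and 0 TPM at 8 h, and 1.28, 1.58 and 0 TPM at 24 h. PEA2 kept the highest treated levels, at 5.62 to 8.4 TPM in its kept libraries, against 1.71 to 2.85 TPM in PEA1. In PEO1, NFIC had 37, 43.7 and 25.4 TPM untreated, 1.63, 3.59 and 2.11 TPM at 8 h, and 1.92, 2.31 and 3.47 TPM at 24 h. In PEO23, NFIC had 14.2, 49.6 and 0 TPM untreated, 0.525, 1.19 and 1.22 TPM at 8 h, and 0.384, 0.863 and 2.91 TPM at 24 h. In PEO14, NFIC had 18.5, 17.6 and 10.8 TPM untreated, 1.28, 1.29 and 1.99 TPM at 8 h, and 0.136, 0 and 5.54 TPM at 24 h. In PEO23 the groups overlapped, because untreated replicate 3 was listed at 0, and in the other 5 lines they did not. The log2 change at 8 h was -2.92, -3.84, -3.84, -3.41, -2.23 and -2.70 in PEA2, PEA1, PEO4, PEO1, PEO23 and PEO14, and at 24 h -1.87, -3.89, -3.77, -3.34, -2.08 and -3.06 (SE 0.83). Among kept libraries NFIC was above 0 everywhere, at 0.136 to 8.4 TPM treated and 10.8 to 47.5 TPM untreated.

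NOL4L was the most abundant of the 5 under treatment. It stood at 0 to 35.2 TPM in treated libraries, with a median of 5.34, and at 15.3 to 111 TPM in untreated ones, with a median of 48.8. In PEA2, NOL4L had 21.5, 31.9 and 43.1 TPM untreated, 4.64, 4.34 and 4.29 TPM at 8 h, and 3.55, 4.91 and 3.74 TPM at 24 h. In PEA1, NOL4L had 17.2, 29.4 and 46.8 TPM untreated, 3.59, 3.46 and 3.32 TPM at 8 h, and 3.32, 2.81 and 3.93 TPM at 24 h. In PEO4, NOL4L had 50.8, 69.8 and 53.9 TPM untreated, 5.95, 5.76 and 22.8 TPM at 8 h, and 9.83, 8.68 and 21.4 TPM at 24 h. The 2 PEA lines had nearly the same treated levels, and PEO4 had higher ones. In PEO1, NOL4L had 15.3, 30.4 and 21 TPM untreated, 1.91, 2.88 and 35.2 TPM at 8 h, and 2.48, 3.3 and 2.12 TPM at 24 h. In PEO23, NOL4L had 95.9, 63.7 and 111 TPM untreated, 19, 21.1 and 16.6 TPM at 8 h, and 14.7, 20.8 and 26 TPM at 24 h. In PEO14, NOL4L had 82.6, 99.2 and 81.2 TPM untreated, 13.1, 15.3 and 14.4 TPM at 8 h, and 6.94, 0 and 19.6 TPM at 24 h. In PEO1 at 8 h the groups overlapped through replicate 3, which had few genes. PEO23 and PEO14 held the highest untreated medians, that of PEO23 in libraries with few genes. The log2 change at 8 h was -2.56, -2.74, -2.50, -1.59, -2.16 and -2.53 in PEA2, PEA1, PEO4, PEO1, PEO23 and PEO14, and at 24 h -2.67, -2.78, -2.14, -2.64, -2.08 and -4.01 (SE 0.71). Without the libraries with few genes the 8 h change in PEO1 was -3.01 and that in PEO4 -3.69. Several genes on the opposite strand, among them the lincRNA NOL4L-DT, overlap its span, so reads may be mixed here too. TPM are shares of each library and these are bulk cultures, so fewer cells expressing a gene and less RNA per cell cannot be told apart.

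**Figure D1:**
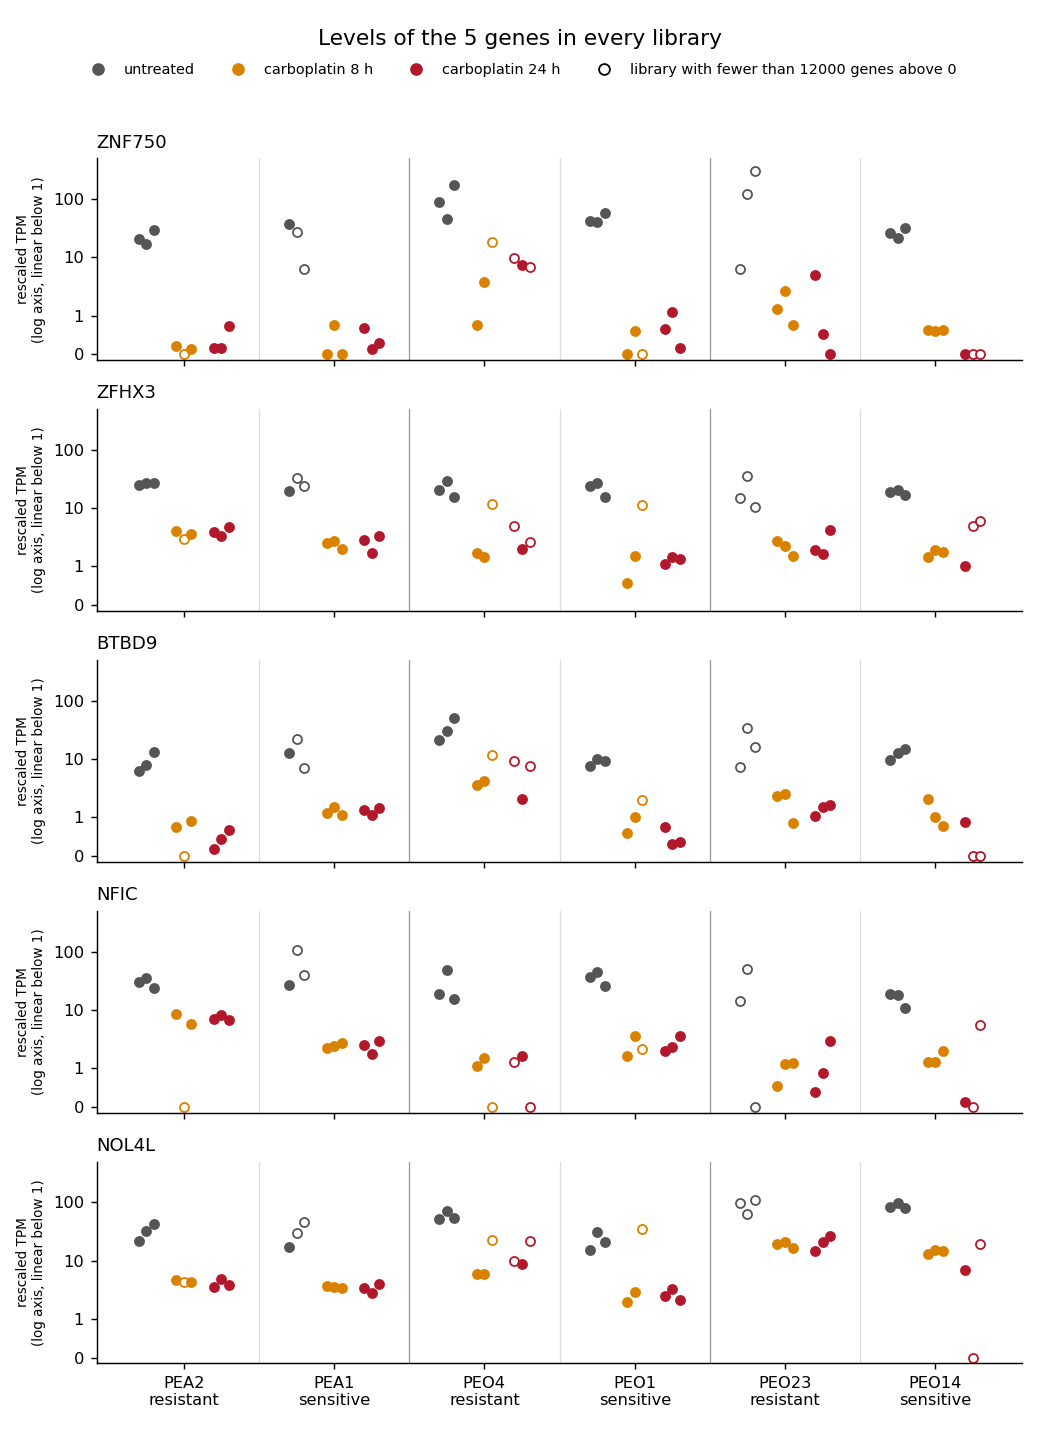
Rescaled TPM of ZNF750, ZFHX3, BTBD9, NFIC and NOL4L in each of the 54 libraries, by line and time, with open points for the 12 libraries that list fewer than 12000 genes above 0. Treated points lie below untreated points of the same line except for NFIC in PEO23 and NOL4L in PEO1 at 8 h, which describes how the genes were selected.

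As a description of the selection, limma called 29 of 30 combinations of gene and line lower at 8 h and 29 of 30 at 24 h (Benjamini-Hochberg adjusted p under 0.05 over 18262 genes). The exceptions were NOL4L in PEO1 at 8 h (adjusted p = 0.21) and NFIC in PEA2 at 24 h (adjusted p = 0.424). Over all genes the share called lower at 8 h was 3.08% in PEA2, 1.8% in PEA1, 7.39% in PEO4, 3.8% in PEO1, 2.68% in PEO23 and 5.15% in PEO14, and at 24 h 2.2% in PEA2, 1.64% in PEA1, 8.28% in PEO4, 3.08% in PEO1, 2.56% in PEO23 and 14.7% in PEO14. The median change of all genes was 1.18 in PEO23 and -0.14 in PEO1 at 8 h, and -0.62 in PEO14, 1.21 in PEO23 and -0.32 in PEO4 at 24 h. In the kept libraries, which give no value for PEO23 because all its untreated libraries are set aside, 25 of 25 combinations were called at each time. There the share of all genes called lower at 8 h was 10.8% in PEA2, 5.3% in PEA1, 32% in PEO4, 24.5% in PEO1 and 21.2% in PEO14, and at 24 h 12.5% in PEA2, 5.23% in PEA1, 12.7% in PEO4, 22.9% in PEO1 and 22.7% in PEO14. In all 6 lines at once, ZNF750, ZFHX3, BTBD9 and NFIC were among 13 genes called lower at 8 h (0.0712% of genes), and ZNF750, ZFHX3, BTBD9 and NOL4L among 11 at 24 h (0.0602%). In the 5 lines of the kept libraries all 5 genes were among 548 such genes at 8 h (3.04%) and 497 at 24 h (2.76%). The 8 h and 24 h comparisons share their untreated libraries and are not independent of each other. Untreated PEA1 and 24 h PEO4 and PEO14 have 1 kept library each, whose spread is taken from the other groups.

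The threshold ran through a continuum. The other genes called lower in all 6 lines at 8 h were SPDYE2, SPDYE2B, SPDYE5, PSAPL1, NUTM2B, COL18A1-AS1, KCNQ1OT1, ITPK1-AS1 and SMCR5. The highest adjusted p over the 6 lines was 0.0451 for ITPK1-AS1 and 0.0472 for SMCR5, just inside, and 0.0544 for LOC100287036 and 0.057 for TNFRSF6B, just outside. At 24 h LOC100287036, PSAPL1, SMCR5, ITPK1-AS1, SPDYE2, SPDYE2B and NUTM2B were called, with NUTM2B at 0.0484 just inside. COL18A1-AS1 at 0.0502, KCNQ1OT1 at 0.0538 and TNFRSF6B at 0.0722 were just outside. The values of SPDYE2, SPDYE2B, SPDYE5 and NUTM2B are uncertain because of close gene copies, and those of KCNQ1OT1, ITPK1-AS1 and COL18A1-AS1 because of genes on the opposite strand.

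**Figure D2:**
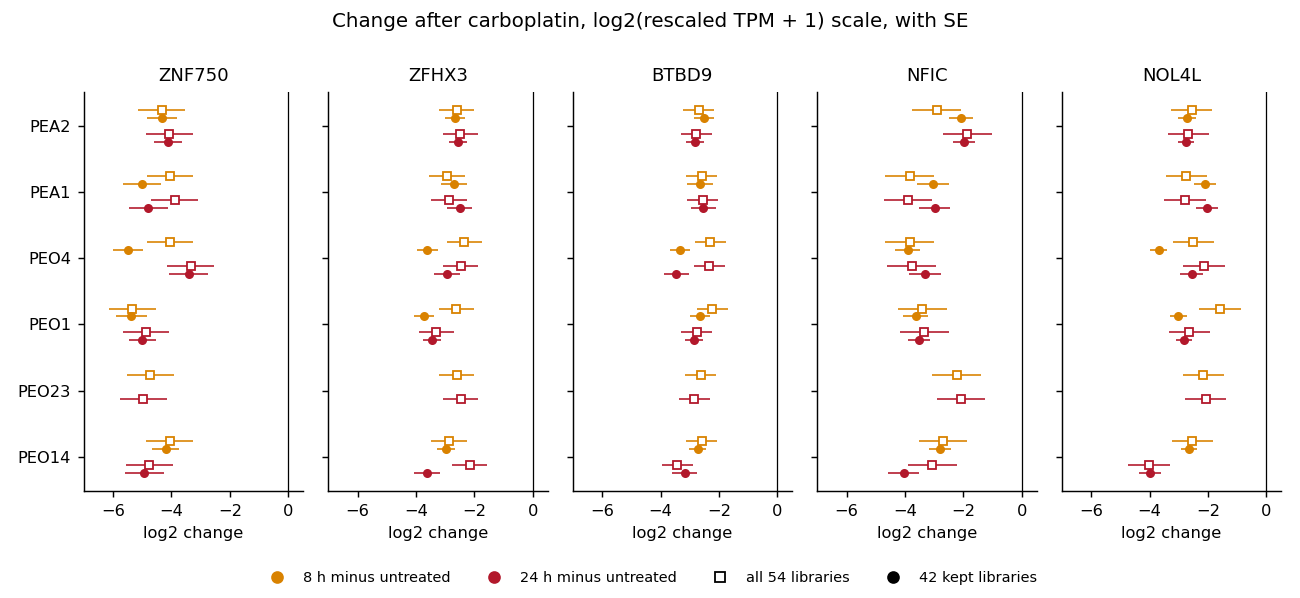
Log2 change in rescaled TPM + 1 at 8 h and at 24 h against untreated cultures for each gene and line, with SE bars, from all 54 libraries and from the 42 kept libraries. All changes are below 0, from -5.48 to -1.59, and ZNF750 has the most negative change of every line at 8 h.

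The order of abundance by medians pooled over lines differed between untreated and treated libraries. Among untreated kept libraries the median was 43.1 TPM for NOL4L, 37.2 for ZNF750, 25.4 for NFIC, 20.6 for ZFHX3 and 12.7 for BTBD9. Among treated kept libraries it was 4.64 TPM for NOL4L, 1.99 for NFIC, 1.89 for ZFHX3, 1.03 for BTBD9 and 0.608 for ZNF750. By these pooled medians ZNF750 stood second in untreated and last in treated libraries, but PEO23 enters only the treated ones. The order was not the same in every line. In the kept PEO4 library at 24 h, ZNF750 had 7.31 TPM, above BTBD9 (2.07), ZFHX3 (1.96) and NFIC (1.58). These values also served in the selection.

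Whether the levels moved on between 8 h and 24 h was asked in each line. With all libraries limma called 0 of 30 combinations, 1 at an unadjusted p under 0.05, with log2 changes of -1.48 to 1.05 (SE 0.53 to 0.83). Over all genes this comparison called 0% in PEA2, 0.011% in PEA1, 0.816% in PEO4, 0.0274% in PEO1, 0.0602% in PEO23 and 0.843% in PEO14. The largest positive change, 1.05 ± 0.83 (SE) for NFIC in PEA2, rests on 8 h replicate 2 listed at 0, and it was 0.12 ± 0.42 in kept libraries. NOL4L in PEO14 gave -1.48 ± 0.71 (limma adjusted p = 0.339), where 24 h replicate 2 was listed at 0. The 95% interval of that change, -2.91 to -0.04, and that of ZFHX3 in PEA2, -1.10 to 1.32, show how wide these estimates were, so a lack of change was not shown.

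In the kept libraries 1 of 30 combinations was called, ZNF750 in PEO4, which was higher at 24 h than at 8 h by 2.07 ± 0.70 (limma adjusted p = 0.0459). Rescaled within the kept libraries, it had 9.18 TPM in 1 library at 24 h against 0.584 and 2.73 TPM in 2 libraries at 8 h. Same-numbered cultures at 8 h and 24 h carry the same culture code, and with a replicate block, which leaves 1 pair here, the change was 1.45 ± 0.82 and was no longer called (limma adjusted p = 0.258). With all libraries the values were 9.6, 7.31 and 6.93 TPM at 24 h against 0.747, 3.7 and 18.5 TPM at 8 h, which overlap, and the change was 0.71 ± 0.80 (adjusted p = 0.769). Over all genes the kept libraries called 0% in PEA2, 0.0278% in PEA1, 14.1% in PEO4, 0.217% in PEO1, 0.394% in PEO23 and 2.54% in PEO14.

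Resistant and sensitive lines were compared first without drug. Of 15 combinations of gene and pair limma called 1, BTBD9 in PEO4 against PEO1. BTBD9 had 21.5, 30.1 and 50.3 TPM in untreated PEO4, against 7.69, 9.99 and 9.1 TPM in untreated PEO1. The log2 difference was 1.74 ± 0.53 (SE, limma adjusted p = 0.0461). The call ended when only these groups were fitted (adjusted p = 0.0594), at a pseudocount of 0.1 (adjusted p = 0.506), or without any replicate number in turn (adjusted p = 0.161 to 0.283). Over all genes 4.75% were called in this pair, 3.81% in PEA2 against PEA1 and 38.2% in PEO23 against PEO14, the last resting on the PEO23 libraries with few genes. NOL4L had 50.8, 69.8 and 53.9 TPM in untreated PEO4, against 15.3, 30.4 and 21 TPM in untreated PEO1. Its difference of 1.39 ± 0.71 was not called (limma adjusted p = 0.405).

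In kept libraries 2 of 10 combinations were called, both in PEO4 against PEO1, whose 6 untreated libraries are the same as above. Rescaled within the kept libraries, BTBD9 had 25.6, 36.1 and 61.4 TPM in PEO4, against 8.18, 10.8 and 8.67 TPM in PEO1, and was higher by 1.96 ± 0.30 (limma adjusted p = 9.98e-06). NOL4L had 60.6, 83.7 and 65.9 TPM in PEO4, against 16.3, 32.8 and 20 TPM in PEO1, and was higher by 1.61 ± 0.27 (limma adjusted p = 3.56e-05). The model shares 1 spread per gene between groups, so calls here depend on which libraries of other groups enter. Over all genes 28.4% were called in this pair and 11.6% in PEA2 against PEA1, where ZNF750, ZFHX3, BTBD9, NFIC and NOL4L differed by -0.71, 0.43, -0.46, 0.18 and 0.86 and none was called.

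Under drug the differences between resistant and sensitive lines were again found mainly in PEO4 and PEO1. At 8 h limma called 0 of 15 combinations with all libraries, 2 at an unadjusted p under 0.05. Over all genes the share was 3.89% in PEA2 against PEA1, 2.78% in PEO4 against PEO1 and 1.48% in PEO23 against PEO14. In kept libraries 1 was called, BTBD9, with 2.84 and 3.03 TPM in PEO4, against 0.57 and 0.651 TPM in PEO1, rescaled within the kept libraries, a difference of 1.29 ± 0.37 (adjusted p = 0.0226). Without rescaling the same libraries gave 0.79 (adjusted p = 0.618). The kept libraries called 16.2%, 9.89% and 14.8% of all genes in these 3 pairs.

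At 24 h limma called 3 of 15 combinations, all higher in PEO4 than in PEO1, where 22.1% of all genes were called, against 3.77% in PEA2 against PEA1 and 2.67% in PEO23 against PEO14. ZNF750 had 9.6, 7.31 and 6.93 TPM in PEO4, against 0.666, 1.15 and 0.172 TPM in PEO1, a difference of 2.46 ± 0.80 (adjusted p = 0.0253). BTBD9 had 9.37, 2.07 and 7.62 TPM in PEO4, against 0.74, 0.309 and 0.372 TPM in PEO1, a difference of 2.15 ± 0.53 (adjusted p = 0.00436). NOL4L had 9.83, 8.68 and 21.4 TPM in PEO4, against 2.48, 3.3 and 2.12 TPM in PEO1, a difference of 1.88 ± 0.71 (adjusted p = 0.0494). Of the 3 PEO4 libraries, 2 had few genes. All 3 calls ended without replicate 1 of every group (adjusted p = 0.129, 0.143 and 0.274). The call for ZNF750 also ended without replicate 2 (adjusted p = 0.091) or without rescaling (0.0671), that for BTBD9 when only these groups were fitted (0.0542), and that for NOL4L under every alternative for all libraries other than the lack of a filter on low values.

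In kept libraries the 24 h comparison called 5 of 15 combinations, and PEO4 and PEO14 had 1 library each. The TPM given for it are rescaled within the kept libraries. Against PEO1, PEO4 was higher in ZNF750 by 2.74 ± 0.66, in BTBD9 by 1.36 ± 0.43 and in NOL4L by 1.88 ± 0.38 (limma adjusted p = 0.00337, 0.0224 and 0.00078). NFIC had 6.43, 7.07 and 7.16 TPM in PEA2, against 2.74, 1.46 and 3.32 TPM in PEA1, a difference of 1.21 ± 0.38 (adjusted p = 0.0224). NOL4L had 13.4, 17.5 and 27.7 TPM in PEO23, against 5.27 TPM in the 1 kept PEO14 library, a difference of 1.65 ± 0.38 (adjusted p = 0.00833). Over all genes 21.6%, 18.7% and 5.16% were called in PEO4 against PEO1, PEA2 against PEA1 and PEO23 against PEO14. ZFHX3 was called in no pair at any time, and in PEO4 against PEO1 it differed by 0.20, 0.31 and 0.71 untreated, at 8 h and at 24 h.

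**Figure D3:**
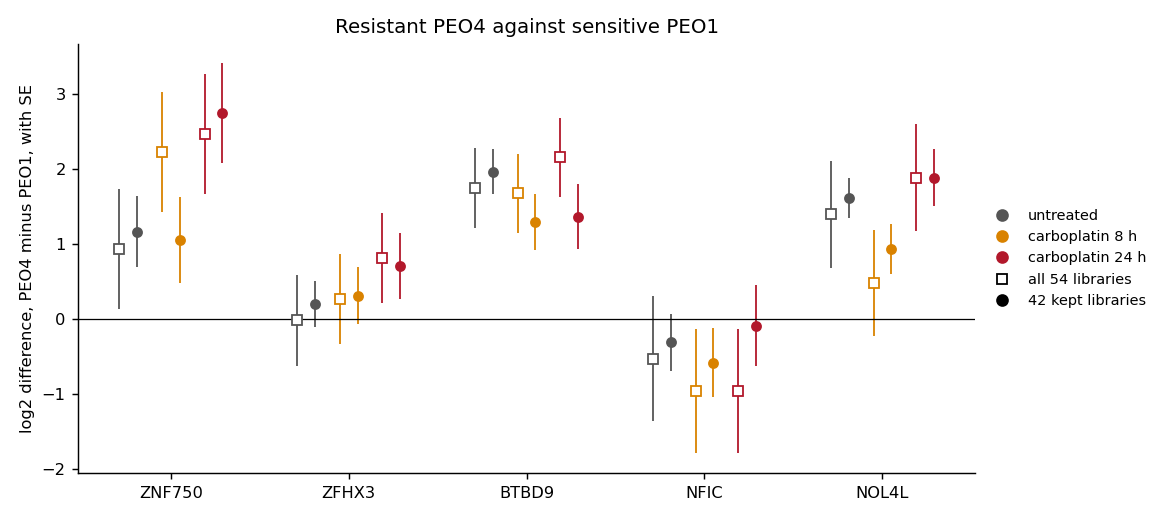
Log2 difference between resistant PEO4 and sensitive PEO1 for each gene, untreated and at 8 h and 24 h of carboplatin, with SE bars, from all libraries and from kept libraries. BTBD9 lies between 1.29 and 2.15 at all times, and NFIC lies below 0 throughout.

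Whether the size of the treatment change differed between the lines of a pair was tested as an interaction. limma called 0 of 15 combinations at 8 h and 0 of 15 at 24 h, with none at an unadjusted p under 0.05. The differences between the changes, resistant minus sensitive, ran from -0.90 to 1.29 at 8 h and from -0.43 to 2.02 at 24 h (SE 0.75 to 1.17), and the 95% intervals were wide, at -1.73 to 1.32 for BTBD9 and -0.36 to 4.39 for NFIC in the PEA pair at 24 h. Over all genes 0.148%, 0.274% and 13.1% were called at 8 h, and 0.12%, 0.323% and 33.8% at 24 h, in the PEA pair, PEO4 with PEO1, and PEO23 with PEO14. Kept libraries called 0 of 10 at either time, 0 at an unadjusted p under 0.05, against 0.339% and 2.38% of all genes at 8 h and 0.383% and 1.38% at 24 h in the first 2 pairs.

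The untreated levels ordered the lines differently for each gene. The places of PEO23 and PEA1 are uncertain. All 3 PEO23 libraries and replicates 2 and 3 of PEA1 had few genes, and no PEO23 library was most alike its own line. By the median of 3 libraries, ZNF750 ran PEO23 (124 TPM), PEO4 (89.9), PEO1 (42.8), PEA1 (27.7), PEO14 (26) and PEA2 (20.3), and of these neighbours only PEO1 and PEA1 did not overlap. NOL4L ran PEO23 (95.9), PEO14 (82.6), PEO4 (53.9), PEA2 (31.9), PEA1 (29.4) and PEO1 (21), with gaps between PEO14 and PEO4 and between PEO4 and PEA2. BTBD9 ran from 30.1 TPM in PEO4 to 7.74 in PEA2, NFIC from 40.2 in PEA1 to 14.2 in PEO23, and ZFHX3 from 27.2 in PEA2 to 14.9 in PEO23, and no neighbours in these 3 orders were free of overlap.

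Across the 17 groups that have kept libraries, the group means of pairs of these genes on the log2 scale correlated at 0.606 (NFIC with NOL4L) to 0.962 (ZNF750 with BTBD9), which largely restates that all 5 were chosen for the same difference. Among the 12 treated groups the correlations ran from -0.362 (NFIC with NOL4L) to 0.726 (ZFHX3 with NFIC), with 0.725 for ZNF750 with BTBD9. The points share lines and libraries, and these are descriptions without a test. The genes whose pattern over the 17 groups was most alike were NKPD1, LOC101928855 and SMCR5 for ZNF750 (Pearson r = 0.986, 0.980 and 0.979) and FDPSP2, LOC339059 and SPDYE6 for ZFHX3 (0.981, 0.976 and 0.968). For BTBD9 they were FLJ42627, SETD1B and PRPH2 (0.979, 0.977 and 0.972), for NFIC MED15, TNRC6A and SNRNP200 (0.975, 0.969 and 0.967), and for NOL4L JPH3, ARHGEF17 and ZNF814 (0.957, 0.955 and 0.954). FDPSP2 is a pseudogene and SPDYE6 has near-identical copies, so both are uncertain.

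The closest relatives of these genes were not used in choosing them, and several were called lower too in kept libraries. ZFHX2, a neuronal member of the ZFHX family, had 0 to 0.617 TPM in treated kept libraries, with a median of 0.187, and 3.2 to 26.4 TPM in untreated ones, with a median of 6.76. In kept libraries it fell at 8 h in all 5 lines, with log2 changes of -2.66, -1.88, -4.44, -3.13 and -2.63 in PEA2, PEA1, PEO4, PEO1 and PEO14 (highest limma adjusted p = 0.000583), and in 5 of 5 at 24 h. ZFHX4 had 0 to 5.3 TPM in treated kept libraries, with a median of 0.85, and 1.98 to 28 TPM in untreated ones, with a median of 10.8. It fell at both times in 5 of 5 lines, at 8 h with changes of -1.19, -3.10, -2.72, -2.70 and -1.49 (highest adjusted p = 0.00977). With all libraries ZFHX2 was called lower in 4 of 6 lines at each time, and ZFHX4 in 2 of 6 at 8 h and 3 of 6 at 24 h. The changes were negative for ZFHX2 in 6 of 6 lines at both times, and for ZFHX4 in 6 of 6 at 8 h and 5 of 6 at 24 h, with larger SE than in kept libraries. For ZFHX2 in PEA1 at 8 h, for example, the change was -1.64 ± 0.51 with all libraries and -1.88 ± 0.34 in kept libraries. Against the untreated PEO23 libraries, ZFHX2 changed by -0.40 and ZFHX4 by -0.17 at 8 h, neither called. ZFHX3 and both relatives thus lay lower in all 5 lines of the kept libraries, where 5.3% to 32% of all genes were called lower in a line at 8 h.

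Over all genes of the kept libraries, 10.8% to 32% were called lower at 8 h in PEA2, PEO4, PEO1 and PEO14. The other shares are given above. In the NFI family NFIX had 1.03 to 26.2 TPM in treated kept libraries, with a median of 6.19, and 15.2 to 88 TPM in untreated ones, with a median of 42.4. It fell at 8 h in 5 of 5 lines of the kept libraries, with log2 changes of -1.55, -2.11, -3.87, -3.18 and -1.64 in PEA2, PEA1, PEO4, PEO1 and PEO14 (highest limma adjusted p = 0.0165), and in 5 of 5 at 24 h. NFIB, at a median of 11.7 TPM treated and 26.3 TPM untreated, had 8 h changes of -0.89, -1.50, -1.56, -2.06 and -1.19 and was also called lower in 5 of 5 lines at both times. NFIA fell in PEO4, PEO1 and PEO14 at 8 h and in PEA1 as well at 24 h. In PEA2 it stood at 0, 0.093 and 0 TPM untreated and was at or near 0 after treatment, so no change could be measured there. With all libraries NFIX was called lower in 3 of 6 lines at 8 h and 4 of 6 at 24 h, NFIB in 0 and 1, and NFIA in 1 and 2. The changes of NFIX and NFIB were negative in 5 of 6 lines at both times, and those of NFIA in 4 of 6 at 8 h and 5 of 6 at 24 h. For NFIB at 8 h they were -0.80, -1.74, -1.15, -1.99 and -1.08 in PEA2, PEA1, PEO4, PEO1 and PEO14, with an SE of 0.80, against SE of 0.20 to 0.28 in kept libraries. Against the untreated PEO23 libraries the 8 h changes of NFIX, NFIB and NFIA were positive, at 0.52, 0.55 and 0.85, and none was called. Without rescaling they were at or below 0. In these untreated libraries, which had few genes, NFIX had 11.4, 0 and 0 TPM, NFIB 97.9, 25.4 and 0 TPM, and NFIA 5.21, 0 and 0 TPM. The median 8 h change of all genes in PEO23 was 1.18. NFIC had a change of -2.23 there at 8 h, but it was selected as lower in all 6 lines. Leaving out the rescaling turned no sign of ZFHX2, ZFHX4, NFIB or NFIX in kept libraries.

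NOL4, the paralogue of NOL4L, had a median of 0 TPM in treated and in untreated kept libraries and reached 1.6 TPM at most, so it was not tested there. ZNF750 lies inside the span of TBCD, a tubulin folding cofactor gene on the opposite strand, and their reads may be mixed for the same reason as above. TBCD had 3.81 to 26.9 TPM in treated kept libraries, with a median of 10.7, and 11.5 to 67.6 TPM in untreated ones, with a median of 20.2. It fell at 8 h in 4 of 5 lines of the kept libraries, with log2 changes of -1.14, -1.79, -1.41 and -1.02 in PEA2, PEO4, PEO1 and PEO14, and its change in PEA1, -0.80, was not called (adjusted p = 0.255). With all libraries its change at 8 h was negative in 5 of 6 lines, and it was called lower in 0 of 6. In PEO23 it was called higher, by 1.97 (limma adjusted p = 0.0195). There 33% of all genes were called higher, and the median change of all genes was 1.18. TBCD had 16.5, 0 and 0 TPM in the untreated PEO23 libraries, which had few genes, against 11.9, 8.46 and 7.6 TPM at 8 h.

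**Figure D4:**
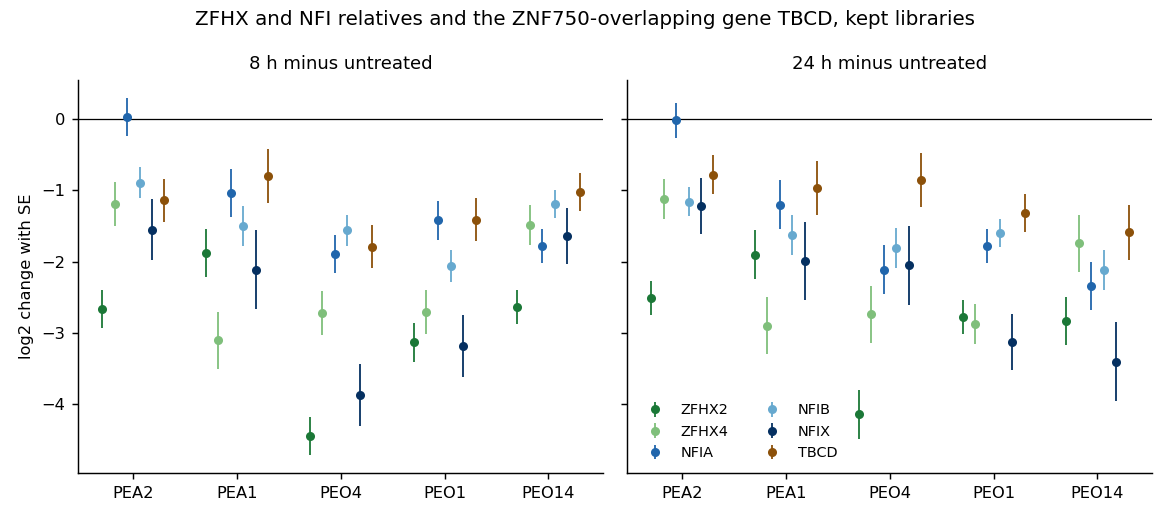
Log2 change at 8 h and at 24 h against untreated cultures for ZFHX2, ZFHX4, NFIA, NFIB, NFIX and TBCD in the 5 lines with untreated kept libraries, with SE bars. All points lie below 0 except NFIA in PEA2 at 8 h, at 0.03, where it is hardly expressed.

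Genes that work with the 5 were followed as lists, and their counts at 8 h are given for kept libraries and then for all libraries. Over all genes the share called lower in kept libraries was 10.8% in PEA2, 5.3% in PEA1, 32% in PEO4, 24.5% in PEO1 and 21.2% in PEO14, as given above, and the share called higher was 3.54% in PEA2, 0.6% in PEA1, 21.6% in PEO4, 17.5% in PEO1 and 8.92% in PEO14, and with all libraries 0.0876% in PEA2, 0.827% in PEA1, 2.69% in PEO4, 0.668% in PEO1, 33% in PEO23 and 0.0767% in PEO14. In PEO23, where the untreated libraries had few genes, the calls in the lists below were all upward. The 13 other tested BTB domain genes went both ways in kept libraries. In PEA2, PEA1, PEO4, PEO1 and PEO14, 3, 1, 6, 6 and 5 were lower and 1, 0, 3, 3 and 1 higher, and with all libraries 0 to 2 were lower and 0 to 1 higher in a line outside PEO23. ABTB2 fell in all 5 lines, with changes of -1.69, -1.86, -4.24, -2.15 and -2.36 in the same order (highest limma adjusted p = 0.00552), and BTBD10 rose in PEO4, PEO1 and PEO14 by 3.52, 1.66 and 1.73. Of 19 tested genes of the CUL3 ligase, 1, 0, 4, 2 and 2 were lower and 1, 0, 5, 4 and 5 higher in the same lines, and with all libraries 0 or 1 was called in either direction in a line outside PEO23. The scaffold CUL3 was called in no line, with changes of 0.36, 0.34, 0.25, 0.39 and 0.73. UBE2F, a NEDD8-conjugating enzyme in this list, rose in PEA2, PEO4, PEO1 and PEO14 by 1.64, 2.36, 1.28 and 1.10.

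Of the 11 iron handling genes, set beside BTBD9, none was called lower in PEA2, PEA1 or PEO14 and 2 were lower in each of PEO4 and PEO1, while 1, 0, 5, 4 and 0 were higher in PEA2, PEA1, PEO4, PEO1 and PEO14. With all libraries 2 were called in PEO4, 5 in PEO23, all higher, and none in the other lines. The transferrin receptor gene TFRC rose in PEO4 and PEO1 by 1.43 and 1.34, and the ferritin light chain gene FTL in PEA2 and PEO1 by 1.02 and 1.01. Of the 5 ZNF750 cofactors, CTBP1 and RCOR1 fell in PEO4, with changes of -0.98 and -1.91 (limma adjusted p = 0.0063 and 0.000204), and none was called in PEA2, PEA1, PEO1 or PEO14. With all libraries none was called outside PEO23, where 3 were higher. KLF4, a target of ZNF750, was called in none of these 5 lines and had log2 changes of -0.04, 0.31, 0.40, -0.09 and 0.72 in PEA2, PEA1, PEO4, PEO1 and PEO14. Against shares of all genes called lower of 10.8% in PEA2, 5.3% in PEA1, 32% in PEO4, 24.5% in PEO1 and 21.2% in PEO14, of 14 epithelial transcription factors, KLF4 and TP63 among them, 0, 0, 5, 2 and 1 were lower and 0, 0, 2, 1 and 2 higher, and PRDM1 and GRHL3, named after their values were seen, fell in PEO4 with changes of -2.29 and -2.27. With all libraries 2 of the 14 were lower and 1 higher in PEO4, and none was called in PEA2, PEA1, PEO1 or PEO14. Of 19 tested epidermal differentiation genes 1, 2, 5, 6 and 0 were lower and 0, 0, 4, 4 and 1 higher in kept libraries, and with all libraries 2 were lower and 1 higher in PEO4, 1 was lower in PEO1 and 11 were higher in PEO23. TP63, which acts above ZNF750 in skin, was called in no line, with changes of 0.24, 0.00, -0.64, -0.16 and -0.31.

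Of 6 tested partners and targets of ZFHX3, 3 fell in PEO1, namely the oestrogen receptor gene ESR1 (log2 change -1.29), KLF5 (-1.33) and PIAS3 (-1.52). ESR1 also fell in PEO4 (-1.33), and RUNX3 in PEO14 (-1.47), and none was higher in a kept line. MYB, a gene that ZFHX3 represses, was called in no line. With all libraries 1 of the 6 was lower in PEO14, 1 higher in PEO23, and none was called in PEA2, PEA1, PEO4 or PEO1. Of 15 tested chromosomal neighbours 2, 0, 9, 6 and 4 were lower and 2, 0, 3, 3 and 3 higher in PEA2, PEA1, PEO4, PEO1 and PEO14. With all libraries, which tested 16, there was 1 lower in each of PEA1, PEO4 and PEO1, 1 higher in PEO4 and 7 higher in PEO23. ASXL1, near NOL4L, fell in PEA2, PEO4, PEO1 and PEO14, with changes of -0.93, -1.46, -1.38 and -1.22, while GLO1, near BTBD9, rose there by 1.91, 3.60, 2.91 and 1.34. COMMD7, near NOL4L, rose in the same 4 lines by 1.18, 2.97, 1.92 and 1.50. Of 20 genes with short-lived mRNAs 1, 2, 13, 4 and 3 were lower and 1, 1, 4, 3 and 2 higher, where 10.8%, 5.3%, 32%, 24.5% and 21.2% of all genes were called lower, and the median of this list was -0.17, -0.22, -1.46, -0.61 and -0.20, against -0.02, 0.00, -0.23, -0.15 and -0.16 for all genes. With all libraries 2 were lower and 1 higher in PEO4, 1 was lower in PEO1 and 10 were higher in PEO23. All these lists were chosen with earlier results of these data known.

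In gene structure 4 of the 5 were long. By the GENCODE annotation, used for names and lengths only, the gene span was 1109 kb for ZFHX3, 471.7 kb for BTBD9, 154.8 kb for NFIC and 142 kb for NOL4L, against 11.14 kb for ZNF750 and a median of 28.01 kb over 16539 tested genes (90.6% of those tested). The longest transcript had 17220 bases in ZFHX3, 8525 in BTBD9, 8399 in NFIC, 6577 in NOL4L and 3713 in ZNF750, against a median of 3058. Transcript GC content was 59.04% in NFIC, 53.6% in NOL4L, 53.19% in ZNF750, 52.91% in BTBD9 and 50.98% in ZFHX3, against a median of 49.32%. ZNF750, the gene with the largest 8 h changes, was thus the shortest of the 5 on both measures.

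Across all genes the 8 h change was related to these properties in kept libraries. Spearman's rho with transcript GC was -0.323 in PEA2, -0.152 in PEA1, -0.469 in PEO4, -0.402 in PEO1 and -0.255 in PEO14, over 16341 genes that share libraries and are no independent replicates. With transcript length it was -0.105 to -0.226, and with gene span -0.091 to 0.030. In PEO4 the quintile of genes with the highest GC had a median change of -1.44 and the quintile with the lowest 0.72. The same quintiles had medians of -0.15 and 0.05 in PEA1. The part of GC content and length in the changes of the 5 genes was not tested.

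**Figure D5:**
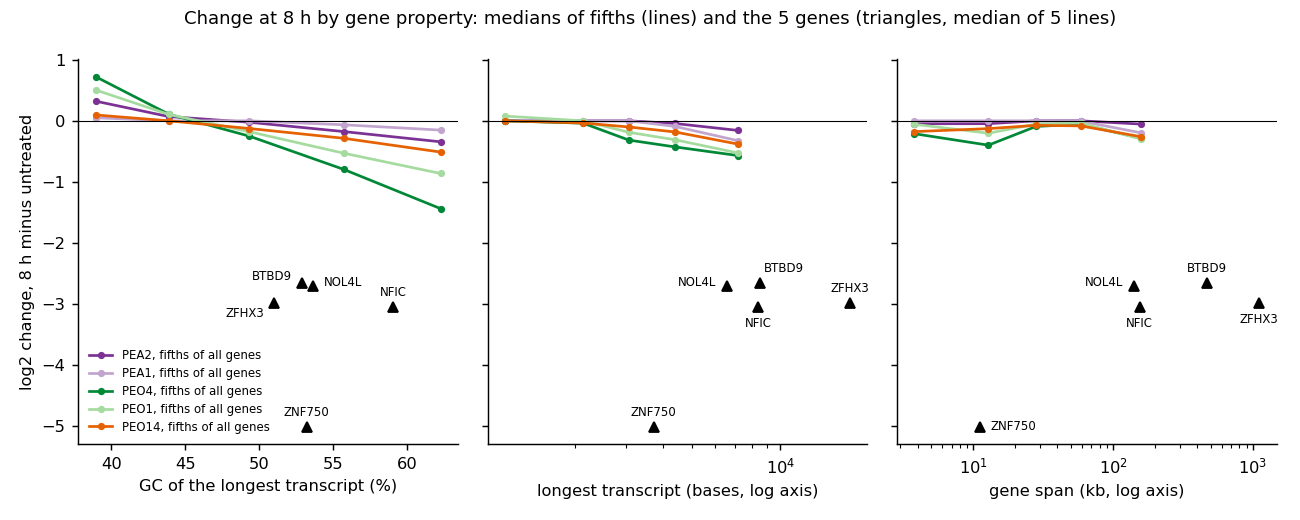
Median log2 change at 8 h in kept libraries for quintiles of all genes by transcript GC content, longest transcript and gene span (coloured lines, 1 per cell line), with the median over 5 lines of each of the 5 genes as triangles. The lines for GC content run from 0.72 in the lowest quintile to -1.44 in the highest in PEO4, and the low place of the triangles follows from how the 5 genes were selected.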

How the data were processed

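Total RNA of 6 established ovarian cancer cell lines was sequenced from stranded libraries, per the labels' protocols. The authors deposited 1 table of TPM per gene and library, whose name points to RSEM. The submitters' processing notes name bcl2fastq 2.18 and hg19, and the aligner and annotation are not given in those sources. TPM keeps no depth, so the number of libraries sets the precision. Median ratios, taken over 392 genes listed above 0 in every library, rescaled the libraries. The 18262 genes that reached 1 TPM in 3 or more libraries were analysed as log2(rescaled TPM + 1) with limma 3.58.1 in R 4.3.3: 18 groups, an intensity trend, 33 comparisons, Benjamini-Hochberg adjustment within each, threshold 0.05. Intervals of 95% use the t quantile at the residual degrees of freedom (36, or 25 for kept libraries). The fit of the 42 kept libraries rescaled them over 8287 genes and tested 18013. The procedure was tested on simulated data.

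The 5 genes, the gene lists and the rules were chosen with earlier results of these data known. Genes named are these 5, the 3 most alike each, all called lower in all 6 lines, the 3 closest outside, paralogues and list members, and some of these are not reported here. Alternatives were no rescaling, upper-quartile scaling, a pseudocount of 0.1, no filter, only the groups compared, each replicate number left out, a replicate block and the kept libraries. The series text says that replicates were collected on different days. The p-values rest on the spread between such cultures within groups, shared per gene over all groups of a fit. They do not measure the spread within the compared lines alone. Same-numbered 8 h and 24 h cultures carry the same culture code in the labels in 18 of 18 pairs, which pairs these libraries. Their deviations from the group means correlated at -0.351 to 0.453, over 0.1 in 9 of 18. For 24 h against 8 h a replicate block was therefore run beside the unpaired fit. Gene spans, lengths and GC content come from GENCODE v29 and promoters from RefSeq, both on GRCh38, with no coordinates of the deposited build used. Python 3.11.15, pandas 2.3.3, numpy 2.4.6 and matplotlib 3.10.9 were used.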

Additional observations from a re-analysis of the deposited data

Results flagged for a closer look

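ZNF750 had differences of opposite sign between 24 h and 8 h in 2 sensitive lines, and neither was called. In all 3 same-numbered cultures of PEO1 it was higher at 24 h, by a median of 0.565 rescaled TPM, and in all 3 of PEO14 it was lower, by a median of -0.631 rescaled TPM. Each of these values lies near the bottom of the scale, all 3 PEO14 libraries at 24 h were listed at 0, and 2 of them had few genes. The limma log2 change, 24 h against 8 h, was 0.47 ± 0.80 (SE) in PEO1 (adjusted p = 1) and -0.70 ± 0.80 in PEO14 (adjusted p = 0.82). The difference between the lines was not tested.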

How the results depend on the processing

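The number of the 5 genes called lower in all 6 lines, 4 at 8 h and 4 at 24 h, was 0 and 0 when only the groups compared were fitted, 1 and 0 at a pseudocount of 0.1, and 2 and 2 with upper-quartile scaling. Leaving out each replicate number gave 0 to 4 at 8 h and 0 to 2 at 24 h. Of the combinations called between resistant and sensitive lines, the 1 in untreated cells became 2 in kept libraries with or without rescaling, 5 with upper-quartile scaling, 0 with only the groups compared and 0 at a pseudocount of 0.1, and 0 to 1 with a replicate number left out. The 0 at 8 h became 1 in kept libraries and 1 at a pseudocount of 0.1, and the 3 at 24 h became 5 in kept libraries and 1 without rescaling, and 0 to 3 with a replicate number left out. For 24 h against 8 h, the 0 became 1 in kept libraries, 2 there without rescaling and 1 with only the groups compared. The interaction at 24 h, called in 0, was called in 3 with upper-quartile scaling and in 0 to 1 with a replicate number left out, and at 8 h it was called in 0 under every alternative run. ZFHX3 in untreated PEO4 against PEO1, -0.02, had the opposite sign in kept libraries (0.20), and ran from -0.05 to 0.09 with a replicate number left out. The causes of these changes were not tested. Over all genes, fitting only the groups compared called 0.728% to 22.8% per pair untreated, 0% to 10% at 8 h and 0% to 19.8% at 24 h. For 24 h against 8 h it called 0% to 0.235% per line. Shares for kept libraries are given above. Those under the other alternatives are not given, so changes in these counts cannot be told from changes in calling over all genes. With a replicate block, 3 genes were called lower in all lines at each time, and 0 combinations were called for 24 h against 8 h and for the interaction at 24 h. In kept libraries the block, run for 24 h against 8 h, called 0 in place of 1.

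The 60 treatment changes of gene, line and time were recomputed under each alternative that allowed it. Of these values 473 kept direction and call, 8 gained a call, 159 lost it and none changed sign. Line differences were tallied for PEO4 against PEO1 only. Of these recomputed differences 125 kept direction and call, 4 gained a call, 18 lost it and 3 changed sign. Calls gained in the other pairs, such as NFIC in PEA2 against PEA1 at 24 h in kept libraries, are outside this tally. The kept libraries without rescaling and with the block were alternatives chosen after seeing the data. Depth is unknown, so levels near 0 cannot be told from absence.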
